A study of Mus musculus with 6 samples.

Results

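Peaks over the genes of 8 families of axon guidance ligands and receptors were compared between proliferating and early differentiating neural stem cell cultures. Members were the protein-coding genes on chromosomes 1 to 19 whose symbols place them among the netrins, *Dcc* and the *Unc5* receptors, the Slits, the Robo receptors, semaphorins 3 to 7, plexins, ephrins or Eph receptors. The rule found 64 genes of 20807 autosomal protein-coding genes in the GENCODE M21 annotation. Each gene was read over its body plus 20 kb on each side, in GRCm38.

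Open chromatin was profiled with ATAC-seq, a method based on a transposase that inserts adapters where DNA is accessible. All 6 libraries came from subependymal zone (SEZ) cultures of mice aged 10 weeks that carried a homozygous CRISPR-Cas9 deletion of *Srr2*, an enhancer of *Sox2* (*Srr2* del/del). Replicates 1, 2 and 4 of the proliferating state (PROLIF) had 2 days in vitro (2 DIV) on Matrigel with FGF, although the series' design text gives 3 DIV for proliferating cells. Replicates 1, 2 and 4 of the differentiating state (DIFF) had the same 2 DIV and then 1 day without mitogens, in 2% serum (2 + 1 DIV). Each library was made from 50000 cells. Founder strain and animals per culture were not given in the labels, and wild-type cultures were not analysed here, so each difference is between states of the mutant.

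The files were lists of peaks with no read counts. They held from 60006 to 88039 peaks per library. The background pileup, solved from each peak's fold enrichment and p and used here as a stand-in for depth, was 2.85 to 2.97 reads in PROLIF. In DIFF it was 2.96 to 3.63 reads in replicates 2 and 1 and 6.01 in replicate 4, the deepest library. A peak that is missing is a signal under the caller's threshold, and in bulk cultures fewer open cells and less open chromatin per cell cannot be told apart. All 10 neural stem and progenitor markers had a promoter peak in every library. So did 4 of 5 markers of mature neurons, 2 of 4 of mature oligodendrocytes and 2 of 5 of microglia, against none of 4 of endothelium and none of 3 of tissues outside the brain. The endothelial gene *Pecam1* did move with the state. Its promoter had a peak in every PROLIF library and in none of DIFF, and its window had 6, 5 and 6 peaks in PROLIF against 4 in each DIFF library, and the endothelial list held 3 PROLIF-only and 0 DIFF-only regions. Its part in the members' PROLIF-only regions was not tested. A promoter peak at such a marker was thus present for some neuronal and glial genes too.

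Guidance cues tell growing axons and migrating cells where to go. Netrins attract through *Dcc* and repel through *Unc5* receptors, Slits repel through Robo receptors, and semaphorins act largely through plexins. Ephrins are bound to the membrane and signal with Eph receptor tyrosine kinases in both directions between touching cells. In the adult SEZ, Slit and ephrin signals are known for their part in the migration of newborn neurons and in the upkeep of the niche.

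The lists of the 6 libraries were merged into regions wherever peaks overlapped. The members' windows held 887 regions, and no region was shared between families. Members were long genes, with a median length of 51.5 kb against 17.6 kb over all coding genes, and had a median of 11 regions per window against 5. Per length the gap was smaller, with a median of 8.80 regions per 100 kb of window against 6.69 over all coding genes. *Slit3* had 45 regions and *Robo1* 44, while *Sema6c* and *Sema7a* had 3 each. Introns held 56.4% of the members' regions, against 40.8% of regions within 20 kb of any coding gene. In 32 of the 64 windows another coding gene also starts, so a region in a window need not belong to the member.

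Regions with a peak in all 6 libraries numbered 302 (34.0%), beside 37.5% of the regions near all coding genes. Regions with a peak in every PROLIF library and no DIFF library numbered 24, and regions with the reverse pattern numbered 49. These PROLIF-only regions were 2.71% of the members' regions, beside 1.64% near all coding genes. DIFF-only regions were 5.52%, beside 3.65%. Where the peaks of a library had to cover at least 50% of a region, DIFF-only regions were 4.06% over members and 3.83% near all coding genes. PROLIF-only regions were then 2.71% over members and 2.26% near all coding genes. Both shares of the members thus lay nearer to the background than with the full rule. Among the strongest 20000 peaks of each list 14 regions (7.33%) went with PROLIF alone and 9 (4.71%) with DIFF alone. Near all coding genes PROLIF-only regions were then also the more frequent kind, at 4.70% against 4.32%.

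State-only regions were weaker and narrower than the shared ones. The median percentile within a list, where 100 is the strongest peak by −log10 p, was 42.5 for PROLIF-only and 30.6 for DIFF-only regions, against 65.1 for shared regions. Median widths were 312, 378 and 743.5 bp. Regions near all coding genes showed the same order, with percentiles of 37.5, 34.7 and 72.6 and widths of 370, 342.5 and 799 bp. A shared region is merged from the peaks of 6 lists and a state-only region from 3, so part of the gap in width can come from the merging. A state-only region must also lack a peak in 3 lists, which favours signals near the caller's threshold. Part of the gap in strength can thus come from the definition, and how much was not tested. At least 1 DIFF-only region lay over 25 members and at least 1 PROLIF-only region over 18. Both kinds lay over 6 members and neither over 27. The same counts were not made over all coding genes, whose windows had a median of 5 regions against 11 for members, so these are not set beside them. Of the 49 DIFF-only regions 41 touched the member's own body, and of the 24 PROLIF-only regions 15 did. Within 3 kb of the start of another coding gene lay 3 regions of each kind, at *Plin4* (a pair of regions beside *Sema6b*), *Dbp* (beside *Ntn5*), *Zyx* (beside *Epha1*), *Dcst1* (beside *Efna4*) and *Gnai2* (beside *Sema3b*).

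**Figure D1:**
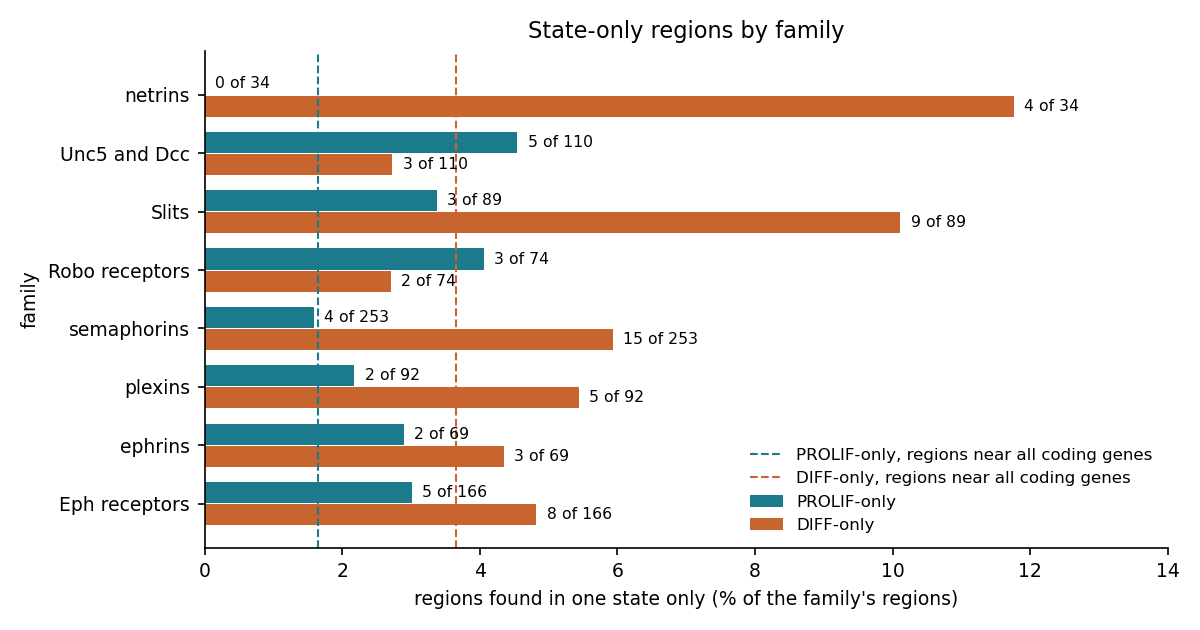
Share of each family's regions that was found in one state only, in percent on the horizontal axis, with the families on the vertical axis and the counts beside the bars. Dashed lines give the same shares over regions near all coding genes (1.64% for PROLIF-only and 3.65% for DIFF-only), and netrins (4 of 34) and Slits (9 of 89) have the highest DIFF-only shares.

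The state-only regions were spread over all 8 families. Among the ligands, netrins had 4 DIFF-only and 0 PROLIF-only regions of 34, Slits 9 and 3 of 89, and semaphorins 15 and 4 of 253. Ephrins were more even, with 3 and 2 of 69. Among the receptors, *Unc5* genes with *Dcc* had 5 PROLIF-only and 3 DIFF-only regions of 110, with a mean of 60.7 ± 11.9 peaks in PROLIF and 66 ± 10.4 in DIFF (SD, n = 3 each). Robo receptors had 3 and 2 of 74. Plexins had 2 PROLIF-only and 5 DIFF-only regions of 92, and Eph receptors 5 and 8 of 166. With counts this small, no family was tested against another.

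Sequences around the summits are given for the strongest PROLIF-only and DIFF-only regions and for 3 others that carry a motif. They are RefSeq GRCm38.p6 reference sequence from the plus strand, with 100 bases on each side of the summit, and capitals mark a match to one of the motifs described below.

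*Unc5c* intron, PROLIF-only, chr3:141493119-141493319: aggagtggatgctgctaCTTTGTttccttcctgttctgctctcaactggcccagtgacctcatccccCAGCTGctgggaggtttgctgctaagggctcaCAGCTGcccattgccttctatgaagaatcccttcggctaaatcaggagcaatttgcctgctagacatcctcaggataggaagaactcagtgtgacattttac
*Unc5b* intron, PROLIF-only, chr10:60792972-60793172: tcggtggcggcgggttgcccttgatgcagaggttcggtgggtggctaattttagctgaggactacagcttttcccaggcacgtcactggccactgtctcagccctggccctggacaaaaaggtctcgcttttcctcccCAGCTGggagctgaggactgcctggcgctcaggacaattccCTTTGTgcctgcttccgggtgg
*Slit3* intron, DIFF-only, chr11:35244652-35244852: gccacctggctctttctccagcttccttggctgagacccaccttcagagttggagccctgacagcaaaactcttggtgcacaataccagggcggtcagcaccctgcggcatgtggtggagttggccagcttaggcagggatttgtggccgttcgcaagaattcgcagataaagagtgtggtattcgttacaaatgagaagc
Beyond the end of *Sema6b*, near the *Plin4* start, DIFF-only, chr17:56110628-56110828: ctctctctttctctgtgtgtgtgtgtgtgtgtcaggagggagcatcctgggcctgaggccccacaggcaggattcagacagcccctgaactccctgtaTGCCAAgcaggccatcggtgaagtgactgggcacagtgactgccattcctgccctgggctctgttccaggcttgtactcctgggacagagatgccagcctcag
*Sema4a* promoter, DIFF-only, chr3:88461453-88461653: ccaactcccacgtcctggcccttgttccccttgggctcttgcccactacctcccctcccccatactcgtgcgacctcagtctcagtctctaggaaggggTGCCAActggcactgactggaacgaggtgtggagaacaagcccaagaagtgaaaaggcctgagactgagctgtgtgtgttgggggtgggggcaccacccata

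The region in *Unc5c*, a repulsive netrin receptor, lies 28.0 kb into the gene and stood at percentiles 67.8 to 84.7 in the PROLIF lists, with fold enrichments of 8.27 to 13.5 over local background. It is the strongest state-only region of either kind by its lowest percentile. In its sequence the first form of E-box occurs at positions -33 and -1 from the summit, and a SOX match at -83. The *Unc5b* region, 38.5 kb into the gene, stood lower, at percentiles 46.8 to 51.8, and has the same E-box at 38 and a SOX match at 79. The other 2 of the 4 strongest PROLIF-only regions lay in *Slit3* introns, 364 and 507 kb from its start, at percentiles 49.9 to 67.9 and 54.3 to 71.4. Neither has an E-box of the first form. The region at 364 kb has a SOX match at -26 and the one at 507 kb holds none of the motifs searched.

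The strongest DIFF-only region, 124 kb into *Slit3*, stood at percentiles 63.8 to 70.9 and holds none of the motifs searched. A second one 441 kb into *Slit3* stood at 52.8 to 60.9 and has the first form of E-box at position 42 from the summit. The region beyond the end of *Sema6b*, a transmembrane semaphorin, stood at 60.5 to 67.6 and has an NFI half-site motif at position -2 from the summit. It lies within 3 kb of the start of *Plin4*, a gene of lipid droplets, so the gene it belongs to is not known. An intronic region 64.6 kb into *Efna5*, a membrane-anchored ephrin, stood at 62.5 to 76.9 and has the same motif at -69.

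The motifs were looked for in either orientation, up to 100 bp from a summit. AP-1 was taken as TGACTCA. The other form of AP-1, TGAGTCA, is its reverse complement, so both orientations hold the same sites. The NFI half-site motif was TTGGCA. The first form of E-box was CAGCTG. The second form of E-box was CAGATG. SOX matches were either ACAAAG, or the variant form, ACAATG. No motif contains another. The first E-box form lay in 12 of the 24 PROLIF-only regions (50.0%, 95% Wilson interval 31.4 to 68.6%) and in 8 of the 49 DIFF-only regions (16.3%, 8.51 to 29.0%). Over all autosomal regions of the same classes the shares were 33.8% and 15.4%. Within 50 bp of the summit the shares over members were 29.2% and 10.2%, beside 22.1% and 8.84%. The NFI motif was found in 5 PROLIF-only regions (20.8%, 9.24 to 40.5%) and 17 DIFF-only regions (34.7%, 22.9 to 48.7%), close to 19.2% and 32.9% over all such regions.

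AP-1 occurred in 3 PROLIF-only regions (12.5%, 4.34 to 31.0%), which lay in *Sema3d* and *Robo1* and downstream of *Sema3c*. It occurred in 0 of 49 DIFF-only regions, with an upper Wilson bound of 7.27%. All PROLIF-only regions of the autosomes had it in 27.9%, and all DIFF-only regions in 2.46%. The second E-box form was in 1 of 24 PROLIF-only regions over members (4.17%, 0.739 to 20.2%), where the share over all PROLIF-only regions was 28.3%, above that interval. Within 50 bp the member share was the same and the share over all PROLIF-only regions was 16.6%, inside the interval. Over members, SOX matches were found in 37.5% of the regions of PROLIF alone and 36.7% of those of DIFF alone, beside 37.8% and 30.1% over all such regions. The intervals cover counting error only, and a match is a string of letters and not a bound site.

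**Figure D2:**
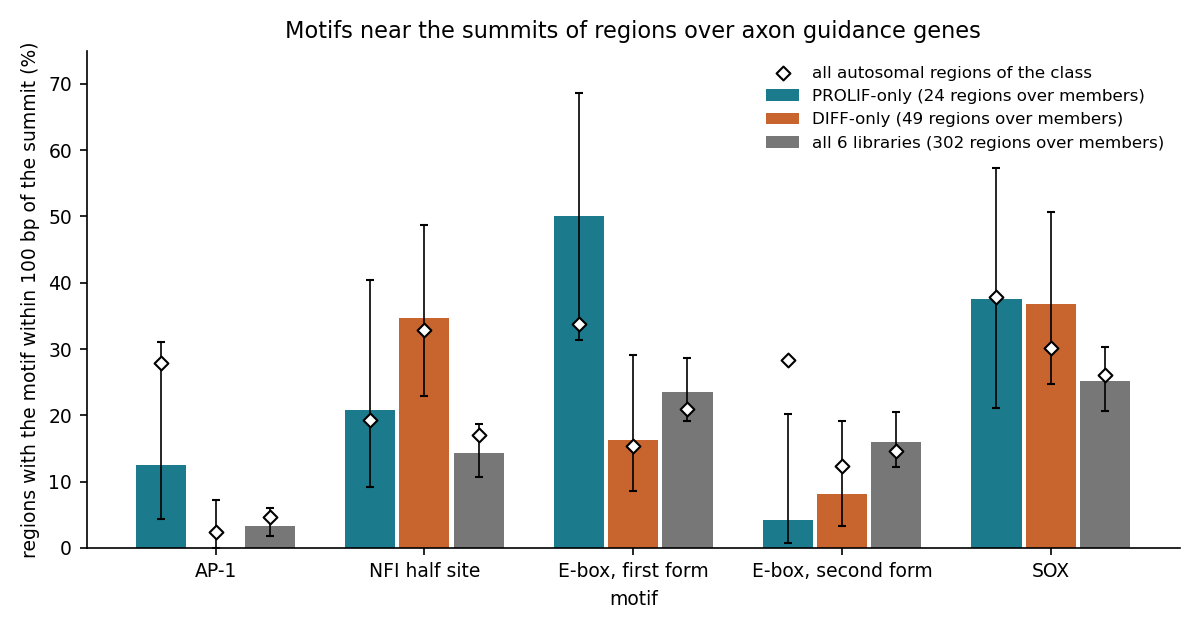
Share of regions with each motif within 100 bp of the summit, in percent, for PROLIF-only, DIFF-only and shared regions over the members, with 95% Wilson intervals. The E-box forms are numbered as in the text, diamonds give all autosomal regions of the class, and the first form stands at 50.0% of PROLIF-only against 16.3% of DIFF-only regions.

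Each member's number of peaks was then compared between the states. A gene was called where every library of one state had more peaks than every library of the other. With 3 libraries against 3 the two-sided exact permutation test then gives p = 0.1, the smallest it can give, so no gene can pass 0.05 and the calls are descriptions of separation. Of the 64 members 11 had more peaks in DIFF (17.2%), beside 6.93% of all coding genes with a peak. In PROLIF 3 had more (4.69%), beside 1.69%. Genes with many regions are called more often. Among coding genes with 10 or more regions, 9 of 39 members (23.1%) had more peaks in DIFF, beside 9.78%, and 1 of 39 (2.56%) had more in PROLIF, beside 1.85%. The mean was higher in DIFF for 45 members, higher in PROLIF for 13 and equal for 6. The same split over all coding genes was not counted, so it is not read as a trait of the members.

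How these calls fell out depended on list length. With every list cut to its strongest 60006 peaks, 10 members had more in DIFF (15.6%, beside 6.90% of all coding genes with a peak) and 5 in PROLIF (7.81%, beside 4.32%), and 6 of the 11 DIFF calls remained, those of *Ephb2*, *Ntn1*, *Plxna4*, *Sema4a*, *Slit3* and *Unc5a*. None of the 3 PROLIF calls remained. Among the strongest 20000 peaks 3 members had more in DIFF (4.69%, beside 6.47%) and 8 in PROLIF (12.5%, beside 4.55%), none of them called in the same direction with the full lists. The members' order turned there, while over all coding genes calls for DIFF remained the more frequent.

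**Figure D3:**
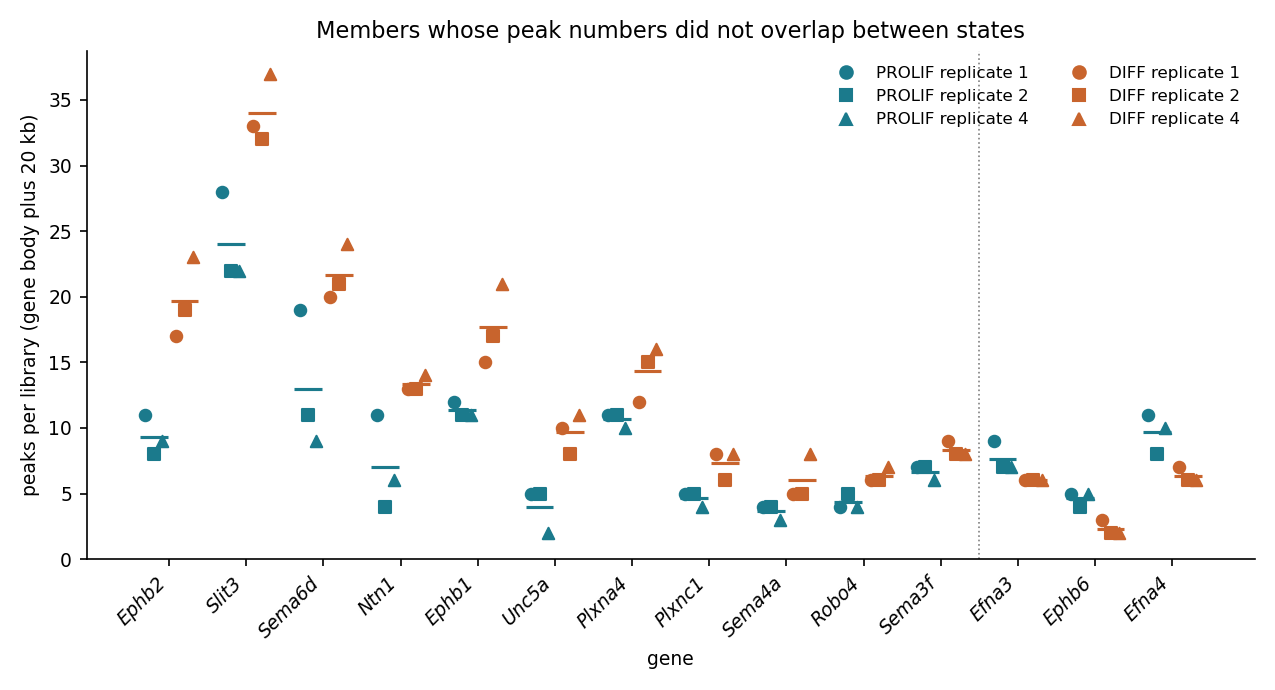
Number of peaks over the gene body plus 20 kb in each library (vertical axis) for the 14 members whose states did not overlap (horizontal axis), with bars at the mean of 3 libraries. The 11 genes left of the dotted line had more peaks in every DIFF library, for example 17 to 23 against 8 to 11 for *Ephb2*, and the 3 to the right had more in every PROLIF library.

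Among netrins and their receptors, a ligand and a receptor had more peaks in DIFF. *Ntn1* (chr11:68209364-68400823), which encodes the secreted netrin 1, had 11, 4 and 6 peaks in PROLIF 1, 2 and 4 and 13, 13 and 14 in DIFF. The DIFF libraries lay close together and PROLIF 1 came nearest to them. The means were 7 ± 3.61 and 13.3 ± 0.577 (SD, n = 3 each), and 3 DIFF-only regions lay in its introns. *Unc5a* (chr13:54949411-55006018), a receptor for netrin, had 5, 5 and 2 peaks in PROLIF and 10, 8 and 11 in DIFF, a mean of 4 ± 1.73 against 9.67 ± 1.53 (SD, n = 3 each). Its lowest DIFF library stood above every PROLIF library. *Dcc*, the attractive netrin receptor and the longest member at 1097 kb, had 23, 15 and 14 peaks in PROLIF and 14, 13 and 16 in DIFF, which overlap. It had 2 PROLIF-only and 0 DIFF-only regions, and *Unc5d*, another repulsive receptor, had 1 DIFF-only and 0 PROLIF-only regions.

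*Slit3* (chr11:35121224-35708507) encodes a secreted repellent and had the most regions of any member. Its libraries had 28, 22 and 22 peaks in PROLIF and 33, 32 and 37 in DIFF, a mean of 24.0 ± 3.46 against 34.0 ± 2.65 (SD, n = 3 each). Of its 45 regions 7 were DIFF-only, 2 PROLIF-only and 15 shared by all libraries. The other Slits overlapped between the states, with 12 to 19 peaks in PROLIF and 12 to 17 in DIFF for *Slit1* and 10 to 12 against 12 to 16 for *Slit2*. As a family the Slits had 53, 51 and 44 peaks in PROLIF and 60, 56 and 70 in DIFF, and theirs was the only family total that did not overlap.

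Among the Robo receptors, *Robo1* had 29, 20 and 19 peaks in PROLIF and 19, 25 and 25 in DIFF, with 2 regions of each state-only kind, so its many regions showed no separation. *Robo4* had 4, 5 and 4 peaks in PROLIF and 6, 6 and 7 in DIFF. Its window overlaps that of *Robo3* over 39.4 kb, and 8 of its 10 regions are counted for both genes. Over the gene body alone its mean difference was 0 and the call was lost, so the called difference lay in the flanks. *Robo3*, with 5, 6 and 4 against 5, 6 and 8 peaks, overlapped between states.

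**Figure D4:**
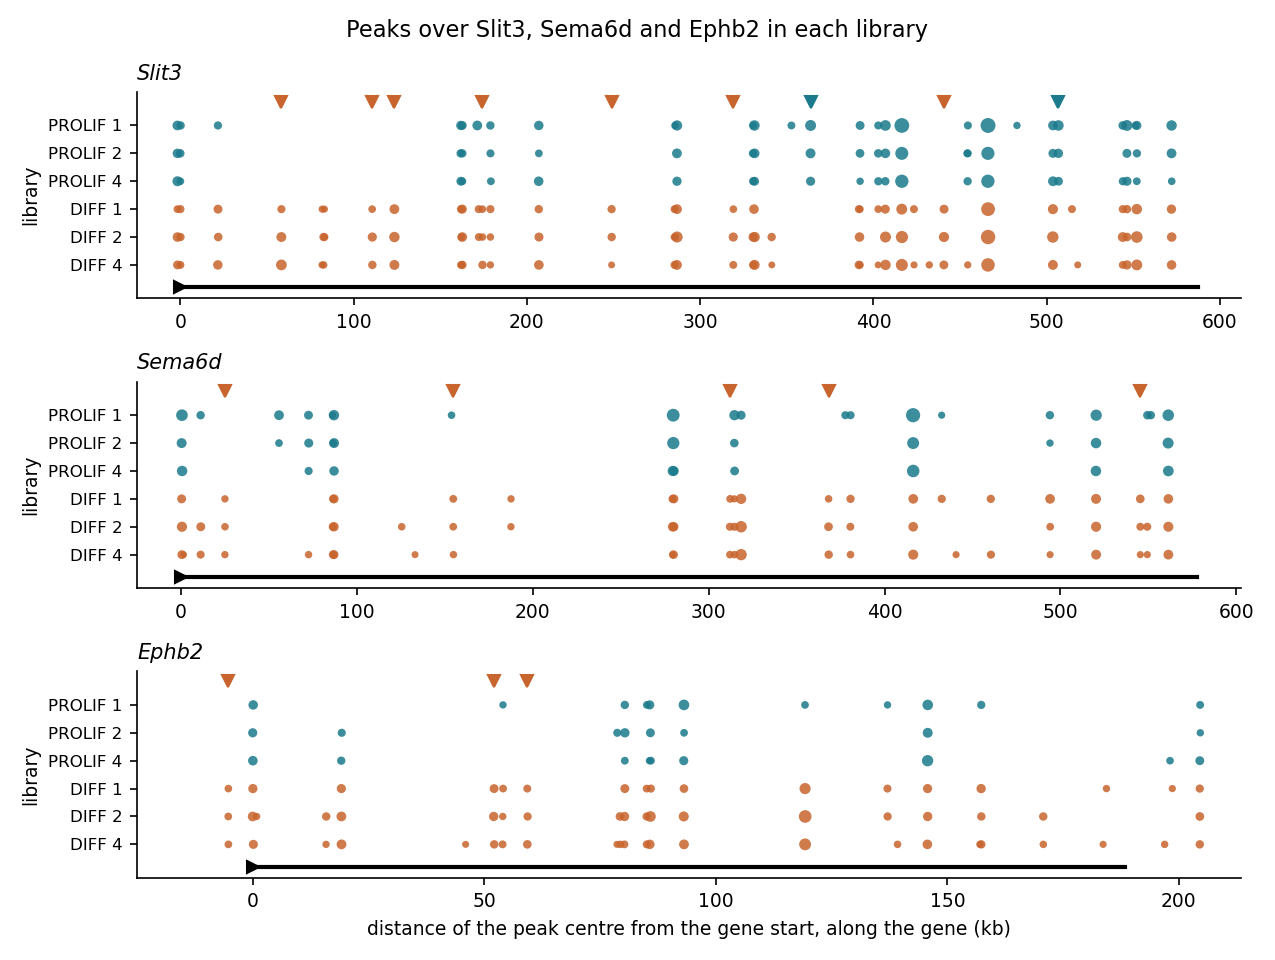
Peaks in each library along *Slit3*, *Sema6d* and *Ephb2*, placed by distance from the gene start in kb, with one row per library, larger dots for higher fold enrichment, the gene body as a black line and triangles at state-only regions. DIFF-only regions (7, 5 and 3 in the 3 genes) are spread along the gene bodies, with 1 of them upstream of *Ephb2*, between peaks shared by all 6 libraries.

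Semaphorins, the largest family, held 3 of the 11 DIFF calls. *Sema6d* (chr2:124089969-124667770), a transmembrane semaphorin, had 19, 11 and 9 peaks in PROLIF and 20, 21 and 24 in DIFF. PROLIF 1 was within 1 peak of the lowest DIFF library, and the means were 13.0 ± 5.29 and 21.7 ± 2.08 (SD, n = 3 each). Its 5 DIFF-only regions lay 24.9 to 545 kb into the gene, all weak, with lowest percentiles of 6.77 to 21.8. Among the strongest 20000 peaks the call turned and *Sema6d* had more peaks in PROLIF, by 2.33 on average. *Sema3f*, a secreted repellent, had 7, 7 and 6 peaks in PROLIF and 9, 8 and 8 in DIFF. *Sema6b* had 3 DIFF-only regions, yet its peak numbers of 10, 10 and 7 against 11, 9 and 13 overlapped.

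*Sema4a* (chr3:88435959-88461182), a membrane semaphorin also known from immune cells, was the only member with a state-only promoter. Its promoter region spans the annotated start, with the summit at -371 bp from it, and was found in DIFF 1, 2 and 4 at percentiles 61.5, 50.2 and 61.7 and fold enrichments of 5.82, 5.93 and 5.70. No PROLIF library had a peak within 3 kb of a start site of the gene. Its sequence has an NFI motif at -1 from the summit. Peak numbers over the window were 4, 4 and 3 in PROLIF and 5, 5 and 8 in DIFF. Over all coding genes 0.384% had a DIFF-only promoter and 0.231% a PROLIF-only one, so 1 and 0 of 64 members are too few to set beside them.

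Of the plexins, the semaphorin receptors, *Plxna4* had 11, 11 and 10 peaks in PROLIF and 12, 15 and 16 in DIFF, and *Plxnc1* 5, 5 and 4 against 8, 6 and 8. Both moved the same way in every library. *Plxna2* had the most regions of the family, 31, with 2 of each state-only kind and overlapping peak numbers of 20, 19 and 17 against 17, 20 and 22.

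Ephrins gave 2 of the 3 PROLIF calls, in neighbouring genes. *Efna3* (chr3:89313899-89322965) had 9, 7 and 7 peaks in PROLIF and 6 in each DIFF library. *Efna4* (chr3:89333390-89338028) had 11, 8 and 10 against 7, 6 and 6. These windows overlap by 29.6 kb and share 8 regions, so they are close to one observation, and *Dcst1* starts at one of the PROLIF-only regions. Over the gene bodies alone, or with 50 kb on each side, no member was called for PROLIF. *Efna5* had the most regions of the family, 24, with 16, 11 and 11 peaks in PROLIF and 16, 12 and 15 in DIFF.

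Among the Eph receptors *Ephb2* (chr4:136647539-136835988) had the largest difference in mean peak number, 10.3 peaks with the full lists, close to the 10 peaks of *Slit3*. Over gene bodies alone the order was the reverse, with 9 for *Ephb2* and 10 for *Slit3*. *Ephb2* had 11, 8 and 9 peaks in PROLIF and 17, 19 and 23 in DIFF, a mean of 9.33 ± 1.53 against 19.7 ± 3.06 (SD, n = 3 each). The lowest DIFF library stood 6 peaks above the highest PROLIF library. *Ephb1* had 12, 11 and 11 peaks against 15, 17 and 21, and each of these receptors had 3 DIFF-only regions and 0 PROLIF-only ones. *Ephb6*, a member of the family without kinase activity, went the other way with 5, 4 and 5 against 3, 2 and 2 peaks. Its PROLIF-only region lay 17.3 kb from its start, beyond the end of the gene and over *Trpv6*. *Epha1* had 2 PROLIF-only regions, one at -1.65 kb from its start and one near the start of *Zyx*, with overlapping peak numbers of 9, 8 and 8 against 7, 3 and 9.

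The members' promoters were nearly all open in both states. A peak within 3 kb of a start site was present in all 6 libraries for 60 of 64 members (93.8%), beside 65.7% of all coding genes, and in no library for 1 (1.56%), beside 24% of all coding genes. The exceptions were *Sema4a*, *Robo4* with a peak in DIFF 2 only, *Epha8* with a peak in DIFF 1 only and *Efnb3* with none. *Efnb3*, a transmembrane ephrin, still had 3, 1 and 1 peaks over its window in PROLIF and 5, 3 and 4 in DIFF. Over the 300 bases around the gene start (250 before to 50 after), members had a median of 19 CpG sites against 12 over all coding genes, and 19 in all coding genes with a promoter peak in every library. *Robo4* had 3 and *Sema4a* 4. *Plxna2* and *Robo1* had the fewest, 2 each, with a promoter peak in every library, so few CpG sites did not always go with a missing peak. *Epha8* had 56, the most of any member, and *Efnb3* 23, so a promoter without peaks was not always a promoter poor in CpG.

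By their lowest percentile over the 6 lists, the top promoters belonged to Eph receptors and class 3 semaphorins. The same groups held weaker ones, with lowest percentiles of 29.0 for *Epha1* and 40.9 for *Sema3g*. *Epha7* stood at percentiles 98.0 to 99.4 in all 6 lists and *Ephb6* at 97.0 to 98.6, so the strongest promoter peak of *Ephb6* stayed near the top of every DIFF list. *Epha5*, *Sema3c*, *Sema3d* and *Ephb3* followed with lowest percentiles of 95.3, 95.2, 95.2 and 94.9, which differ by less than the range between libraries. In all, 11 members were above percentile 90 in every list, among them *Unc5b*, *Unc5c*, *Unc5d* and *Sema6c*. The same count over all coding genes was not made. These genes were picked for their values and are a description. At the other end *Efna1* ranged from 5.55 to 61.0 and *Sema6b* from 12.3 to 70.3, a spread over libraries of one state too wide to rank them.

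Ranks of the promoter peaks were compared over the 60 members with a peak in all libraries. Those whose percentiles were higher in every DIFF library numbered 14 (23.3%), beside 26.6% of all such genes, and those higher in every PROLIF library numbered 4 (6.67%), beside 4.67%. The median change from PROLIF to DIFF was 2.41 percentile points over members and 2.34 over all such genes. By this measure the members went with the background. The values are ranks within a list and do not set the level of one list against another.

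The largest changes of rank were in promoters of middle strength. *Sema7a*, a membrane-anchored semaphorin, stood at percentiles 45.9, 24.96 and 58.0 in PROLIF and 73.0, 61.5 and 74.4 in DIFF. *Ntn5* stood at 40.6, 47.8 and 58.4 against 72.9, 64.4 and 77.2. Both were higher in every DIFF library, as were *Efna2* (49.9 ± 9.17 against 69.5 ± 4.23), *Sema4g* (41.7 ± 9.14 against 58.5 ± 5.43) and *Ephb2* (58.5 ± 3.62 against 68.7 ± 2.24, SD, n = 3 each). *Ephb2* was the only one of these 5 also called for peak number. With lists of equal length the calls of *Sema7a*, *Ntn5* and *Ephb2* were lost, at differences of 28.3, 24.6 and 8.64 percentile points. At a promoter reach of 1 kb *Ntn5* gave no value, so not every library had a peak that near to its starts. In its window 5 other coding genes start, so the peak ranked for *Ntn5* need not belong to it.

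The 4 promoters that ranked higher in PROLIF were those of receptors. Receptors also had promoters that ranked higher in DIFF, 2 among plexins and 3 among Eph receptors, so this is not read as a trait of receptors. *Epha1* stood at 65.4, 42.8 and 66.3 in PROLIF and 40.2, 29.0 and 36.0 in DIFF, with PROLIF 2 only a little above DIFF 1. With a promoter reach of 1 kb, which leaves out the PROLIF-only region at -1.65 kb, the difference went from -23.1 to -1.62 percentile points and the call was lost. The others fell by less, *Epha3* from 82.8 ± 2.26 to 76.4 ± 2.67, *Dcc* from 78.7 ± 3.01 to 72.6 ± 1.32 and *Robo1* from 94.9 ± 0.278 to 91.7 ± 1.76 (SD, n = 3 each). The two-sided exact permutation p was 0.1 for each of these 9 genes, the smallest possible.

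**Figure D5:**
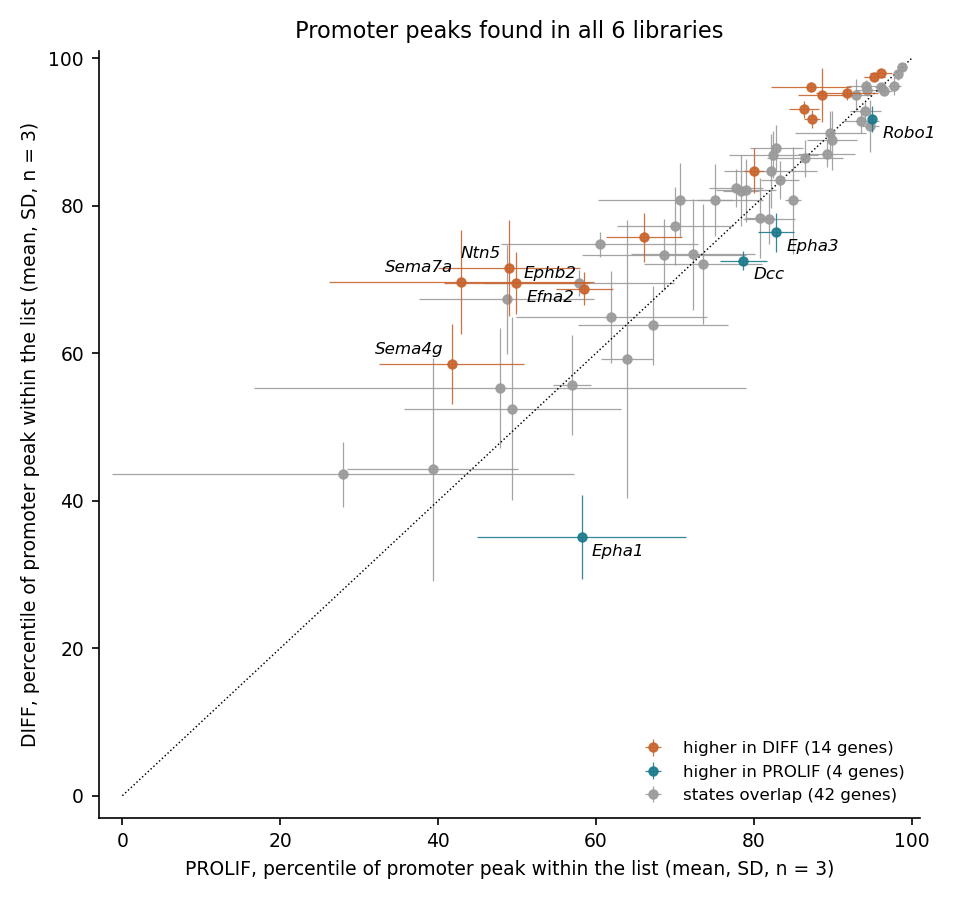
Percentile of the strongest promoter peak within its list for the 60 members with a promoter peak in all 6 libraries, as the mean of 3 PROLIF libraries (horizontal axis) and of 3 DIFF libraries (vertical axis) with SD. The 14 promoters higher in every DIFF library lie above the dotted line of equal rank and the 4 higher in every PROLIF library below it, with *Sema7a* and *Epha1* farthest from it among the labelled genes.

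Over all member windows together the libraries had 610, 492 and 447 peaks in PROLIF 1, 2 and 4 and 557, 553 and 676 in DIFF, a mean of 516 ± 84.2 against 595 ± 69.9 (SD, n = 3 each), which overlap. As a share of each autosomal list they did not overlap, at 0.760%, 0.761% and 0.768% in PROLIF and 0.802%, 0.803% and 0.790% in DIFF. The peak names carry an input number that falls in a lower range for PROLIF 1, PROLIF 4 and DIFF 1 and in a higher range for the others. Within the lower range the share was 0.764% as the mean of 2 PROLIF libraries and 0.802% in the 1 DIFF library. Within the higher range it was 0.761% in the 1 PROLIF library and 0.797% as the mean of 2 DIFF libraries. With 1 library on one side of each range no spread can be given, and the part of the input number was not tested. With only the strongest 20000 peaks the mean number over members fell by 1 peak from PROLIF to DIFF.

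Other genes of the pathway, co-receptors and the cytoskeletal proteins downstream of the receptors, were counted in the same way. Of 45 such genes 5 had more peaks in DIFF and 0 in PROLIF, where 6.93% and 1.69% of all coding genes with a peak did. Among all coding genes with 10 or more regions, which are called more often, the shares were 9.78% and 1.85%. The 45 genes were not split by number of regions, so the 5 calls are not read as more than the background. The genes called for DIFF are named next. They were *Rgma*, a ligand of neogenin, the adhesion molecules *Cntn2* and *Nrcam*, *Ablim1*, which binds actin, and the kinase gene *Pak1*. Their windows held 696 regions, of which 15 (2.16%) were PROLIF-only and 32 (4.6%) DIFF-only, beside 1.64% and 3.65% near all coding genes. *Dscam*, a netrin receptor, had 4 DIFF-only regions and *Nrcam* and *Ablim1* 3 each. A promoter peak in all 6 libraries was found for 42 of the 45.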

How the data were processed

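ATAC-seq peak lists of 3 PROLIF and 3 DIFF libraries were grouped by the labels. The authors checked reads with FastQC and MultiQC, clipped adapters (Cutadapt), trimmed by quality (Trimmomatic) and aligned to GRCm38, also named mm10, using Bowtie2. Picard served for duplicates, and MACS2 gave narrow peaks per library at a false discovery rate of 0.05. Versions, read extension, transposase shift and blacklist are not given in the sources used here. Each deposited line holds a score, a fold enrichment (a ratio to local background of the same library) and −log10 p and q. The deposited −log10 p ranked peaks within a list, the q filtered them in an alternative and the score was not used.

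Peaks overlapping by 1 bp or more were merged into regions. Promoter peaks lie within 3 kb of a GENCODE M21 start site of the gene (the study used another release). State-only regions were those present throughout one state's 3 lists and absent from the other's. Genes were compared by two-sided exact permutation over 6 libraries, with the calls made over all autosomal coding genes. Scripts were tested on simulated lists. No count model was possible. The permutation p is the share of label splits whose means differ at least as much as observed. It covers these 6 libraries only and does not measure the spread between cultures.

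Windows of 1 Mb on chromosome 10 in which replicate 1 of both states had at least 2 times the share of peaks in the other replicates held no member.

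Named genes were those with 3 or more regions of one state, those called for peak number, those with a promoter peak in one state or in no library, the 5 of each direction with the largest called change of promoter rank, and the member of each family with most regions. *Robo3*, *Slit1*, *Slit2*, *Unc5d*, *Sema6c*, *Epha8*, *Robo4* as a promoter, and the strongest and weakest promoters were named after their values were seen, and the stratum of 10 or more regions and the printed sequences were chosen then too. Members, lists and tests were chosen with earlier results of these data known. Alternatives were q under 0.01, lists of equal length, the strongest 20000 peaks, gene bodies only, a flank of 50 kb, a promoter reach of 1 kb, peaks that cover 50% of a region or more, a motif window of 50 bp, motifs away from start sites (beyond 3 kb), the replicate block and the removal of single libraries. Software was scipy 1.17.1, pandas 2.3.3, pysam 0.24.0, numpy 2.4.6 and matplotlib 3.10.9 under Python 3.11.15. X-linked members and expression data were not analysed here.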

Additional observations from a re-analysis of the deposited data

How the results depend on the processing

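Peak lists limit what can be said. A region just under the threshold in 1 library is no longer state-only, the libraries differ in depth, and with 3 libraries a state the exact permutation test cannot go below p = 0.1. With the strongest 20000 peaks, PROLIF-only regions over the members fell to 14 and DIFF-only regions to 9, members with more peaks in PROLIF rose to 8 and with more in DIFF fell to 3, promoters with a peak in all libraries fell to 36, the state-only promoter count fell to 0, promoter ranks called fell to 11 and the mean difference in peaks over all windows became -1. The cause was not tested, beyond the smaller number of peaks by construction. In the same setting the mean difference in peaks became 0.67 for *Efna3* and *Efna4*, -0.33 for *Plxnc1* and *Robo4* and -2.33 for *Sema6d*, and with lists of equal length it became -0.33 for *Robo4*. Members with more peaks in PROLIF numbered 5 with lists of equal length (7.81%, beside 4.32% of all coding genes with a peak). They numbered 0 for gene bodies only (beside 1.16%) and 0 with a flank of 50 kb (beside 1.61%). These are the same exact permutation calls, in which no gene can reach an unadjusted p under 0.05. PROLIF-only regions numbered 15 over gene bodies alone (2.14%, beside 1.58% for all coding genes).

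Libraries of the states share replicate numbers, but nothing in the sources used here ties a number to one culture across states. Deviations of region occupancy from the state mean correlated at 0.0249, 0.0351 and 0.0323 between same-numbered libraries and at -0.0273 to -0.00656 between others, so each library correlated best with its own number, though weakly, which is a hint from the data and not the design. With the replicate block, a region needed a change to one state in at least 2 of 3 pairs and the reverse in none. Then 63 regions went with PROLIF (7.10%, beside 5.74% near all coding genes) and 136 with DIFF (15.3%, beside 11.4%). For peak number 3 members were called for PROLIF (4.69%, beside 2.71% of all coding genes with a peak) and 14 for DIFF (21.9%, beside 10.7%). For promoter rank 27 were called, 11.7% for PROLIF (beside 7.61% of all such genes) and 33.3% for DIFF (beside 38.6%). Leaving out each library in turn gave 25 to 40 PROLIF-only and 50 to 82 DIFF-only regions. Members with more peaks numbered 3 to 9 in PROLIF and 11 to 22 in DIFF, and 21 to 30 promoter ranks were called. The member share of promoters ranked higher in DIFF lay below that over all such genes each time, and of those higher in PROLIF above it. Without PROLIF replicate 1 these shares were 41.7% beside 48.5% and 8.33% beside 5.23%. Leaving a library out can only add such calls. The highest DIFF counts, 82 regions and 22 members, came without PROLIF replicate 1, and 9 members had more peaks in PROLIF without DIFF replicate 4, the deepest library. DIFF-only regions numbered 76 without DIFF replicate 1 (8.83%, beside 6.15%). Without PROLIF replicate 4, PROLIF-only regions numbered 40 (4.56%, beside 3.21%) and members with more peaks in PROLIF 6 (9.38%, beside 4.74%). The 14 genes called for peak number kept their call in 133 of 168 gene and setting combinations, lost it with the same direction in 23, had no difference in 6 and changed direction in 6. The 9 genes named for promoter rank kept it in 87 of 91 combinations with a value and changed direction in none of these. The losses were *Epha1* at a reach of 1 kb and *Sema7a*, *Ntn5* and *Ephb2* with lists of equal length. A further 8 combinations gave no value, 7 of them with the strongest 20000 peaks and 1 (*Ntn5*) at a reach of 1 kb. The AP-1 share over PROLIF-only regions moved by less than its interval under both motif alternatives. The difference in peaks over all windows was 11.7 with lists of equal length and 38.7 to 126 with a library left out, against 79, lowest without DIFF replicate 4, highest without PROLIF replicate 1, and 44.3 without PROLIF replicate 4.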
